A study of Caenorhabditis elegans with 12 samples.

Results

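The 92 genes described here were those whose small RNAs were lost from both of 2 RNA interference mutants of Caenorhabditis elegans, out of 42048 genes counted, 34246 of them with at least 1 read over the series. A gene was taken when its mean level in wild-type N2 worms was at least 20 fpm (reads of a gene scaled to the library's total over all genes) in RNA treated with 5′ polyphosphatase. Its mean in meg-3 meg-4 worms and its mean in rde-11 also had to lie below 50% of the N2 mean, and its N2 mean in treated RNA above that in untreated RNA. Genes with names of repeated families or of small RNA and histone loci (fbx, his-, linc-, mir-, 21ur-, bath-, math-, clec-, nhr-, rpl-, rps-, msp-), pos-1 itself and E01G4.5 were left out. The members were thus chosen by their measured levels in treated RNA, so the losses against N2 in treated RNA are given below as a description, with no test.

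The libraries came from 3 strains of whole young mother worms at 20 °C, all fed HT115 bacteria that expressed double-stranded RNA of 400 nt against pos-1, a maternal gene needed in the early embryo. The strains were meg-3(ax3055) meg-4(ax3052), which carries an allele of each of these germ granule genes, the mutant rde-11(hj37) and the wild type N2. Each strain gave 2 libraries from treated and 2 from untreated RNA, so that 12 libraries fell into 6 groups. Worms without pos-1 double-stranded RNA were not analysed here, so an effect of the feeding and the state of the strain cannot be told apart. The titles of replicate 2 of meg-3 meg-4 carry a strain number with its digits in another order than those of replicate 1, and both were taken as 1 group because their genotype labels agree.

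Small RNAs made by RNA-dependent RNA polymerases on a target mRNA, the 22G RNAs, carry a 5′ triphosphate and enter such libraries only after 5′ polyphosphatase, whereas microRNAs, piRNAs and Dicer products carry a 5′ monophosphate and enter without it. In exogenous RNA interference, Dicer and the Argonaute RDE-1 make and use primary small RNAs, and 22G RNAs then amplify the silencing. MEG-3 and MEG-4 are disordered proteins of the germ granules (P granules), and RDE-11 is a RING-type zinc finger protein that acts with RDE-10 in amplification. Many germline and somatic genes carry 22G RNAs without any feeding.

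Libraries held 3884534 to 5278777 reads, so that 1 read was worth 0.189 to 0.257 fpm. The genes mutated in the strains were followed through the small RNAs against them. Those against meg-4 came to 0 and 2 reads in the treated libraries of meg-3 meg-4, to 693 and 670 reads in those of rde-11 and to 356 and 299 reads in those of N2. Those against meg-3 came to 5 and 7 reads in meg-3 meg-4 worms, 69 and 90 reads in rde-11 and 48 and 60 reads in N2. rde-11 stood at 4352 and 4367 fpm in meg-3 meg-4 worms, 744 and 758 fpm in the rde-11 mutant and 636 and 631 fpm in N2, so this gene's small RNAs did not check the rde-11 label. The microRNAs of the mir-35 family are found in oocytes and embryos. In untreated RNA they summed to 27794 and 26111 fpm in meg-3 meg-4 worms and 41321 and 37087 fpm in rde-11. N2 lay between these, at 34461 and 32240 fpm, without overlap. In treated RNA the sums were 9296 and 7573 fpm in meg-3 meg-4 worms and 11559 and 9839 fpm in rde-11. Those of N2, 10433 and 9634 fpm, overlapped those of rde-11. The cause of these differences was not tested. let-7, a microRNA of late larvae and adults, lay between 1674 and 2363 fpm in treated and between 5483 and 6419 fpm in untreated RNA.

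Among the members, 89 were protein-coding genes, 2 were annotated as ncRNA (Y37E3.26 and Y23H5A.9) and 1 as antisense RNA (Y48B6A.17). They are set here beside the 4531 genes that met the same N2 conditions and name exclusions. Of the members, 25 lay on chromosome I (27.2%, against 22.3% of the 4531 genes), 18 each on IV (19.6%, against 16.6%) and V (19.6%, against 14.99%), 14 each on II (15.2%, against 18.2%) and III (15.2%, against 21.5%), and 3 on X (3.26%, against 5.78%). Their median exonic length was 1222.5 nt, against 1741 nt over the 4502 of those genes with annotation. An exon of another gene on the opposite strand overlapped 35 members (38.04%, against 26.4%), and an exon on the same strand overlapped 7 members (7.61%, against 7.996%). These are descriptions without a test, and the sources used here do not say whether the authors counted by strand, so reads of overlapping genes cannot be told apart.

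In treated RNA the 92 members together held 2649 and 2451 fpm in the 2 meg-3 meg-4 libraries, 3892 and 3559 fpm in the rde-11 libraries and 12614 and 11416 fpm in the N2 libraries. The sums were lowest in meg-3 meg-4 worms and highest in N2. Without B0001.5, the most abundant member, they were 2087 and 1876 fpm in meg-3 meg-4 worms, 3159 and 2839 fpm in rde-11 and 10801 and 9593 fpm in N2, in the same order. In whole worms, fewer cells that make a small RNA and less of it per cell cannot be told apart.

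**Figure D1:**
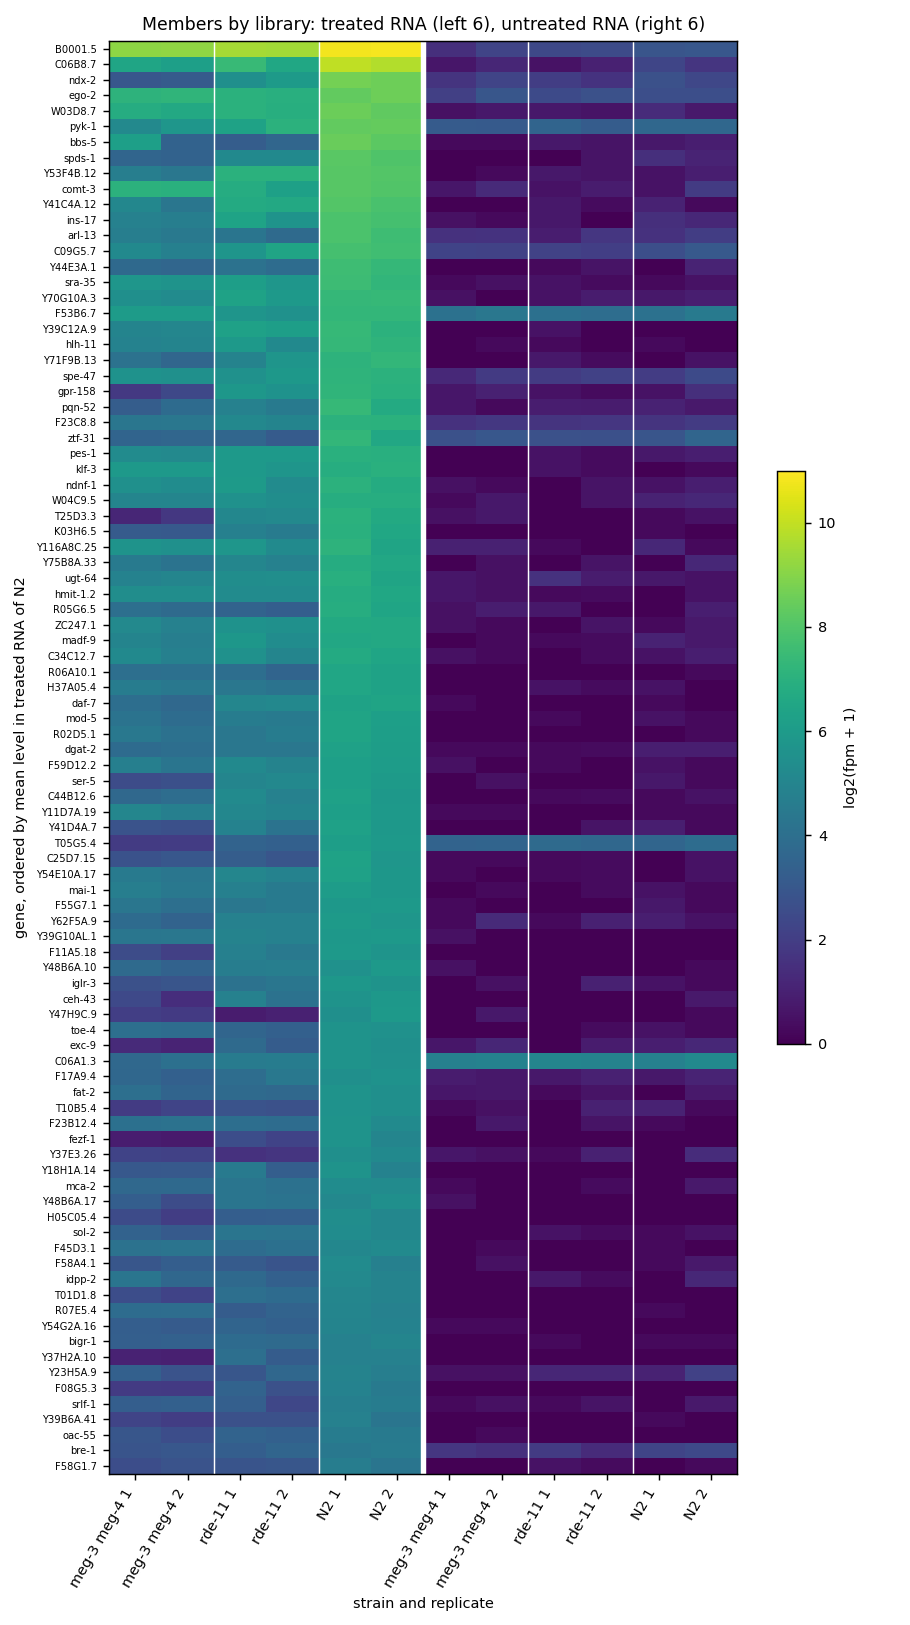
Level of the small RNAs of the 92 members (rows, ordered by the N2 mean in treated RNA) in the 12 libraries (columns), as log2(fpm + 1), with treated RNA in the left 6 columns and untreated RNA in the right 6. The treated N2 columns are the brightest, and most rows are dark in untreated RNA of every strain, with C06A1.3, F53B6.7, T05G5.4, pyk-1 and ztf-31 as the lightest exceptions.

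Member means spanned 0.802 to 568 fpm in meg-3 meg-4 worms (median 14.1), 0.897 to 727 fpm in rde-11 (median 23.5) and 21.3 to 1818 fpm in N2 (median 71.7), all in treated RNA. As a share of the N2 mean, levels lay between 1.63% and 49.2% in meg-3 meg-4 worms, with a median of 20.4%, and between 1.76% and 49.96% in rde-11, with a median of 34.3%. The medians over the 4531 genes were 92.1% in meg-3 meg-4 worms and 120% in rde-11. In meg-3 meg-4 23 members kept under 10% of the N2 mean, in rde-11 7 did, and in both 4 did, namely Y44E3A.1, Y47H9C.9, Y37E3.26 and ztf-31, the zinc finger gene that the files list as T20H4.2. Of the 4531 genes, 12.9% had a mean below 50% of N2 in meg-3 meg-4 worms and 4.02% in rde-11: 493 in the double mutant alone, 90 in rde-11 alone and 3856 in neither.

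Both libraries of meg-3 meg-4 lay below both N2 libraries for 92 of 92 members, where 40.8% of the 4531 genes did so, and likewise both libraries of rde-11 for 92 of 92 members, where 18.3% did so. The rule used these contrasts, and nothing is read from the counts. Each meg-3 meg-4 library was under 50% of each N2 library for 85 members (10.7% of the 4531 genes), and each rde-11 library for 66 members (2.87%). The libraries of both mutants were so for 62 members, and any of the 4531 genes for which they were is a member by the rule. The depth behind a member was 76 to 8899 reads in an N2 library and 4 to 3727 reads in a mutant library, so that the smallest mutant values rest on few reads. The limma fits against N2 placed 91 members lower in meg-3 meg-4 worms (6.72% of all genes tested were lower and 8.27% called in either direction) and 92 lower in rde-11 (4.48% were lower and 10.8% called in either direction), which the choice of the members sets.

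**Figure D2:**
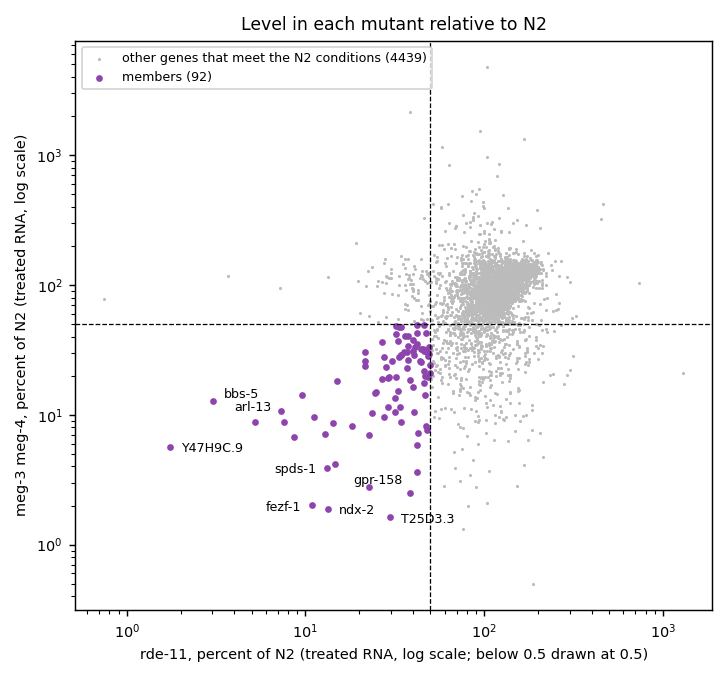
Mean level in treated RNA as a percent of the N2 mean, in rde-11 (horizontal, log scale) and in meg-3 meg-4 worms (vertical, log scale), for the 92 members (purple) and the 4439 other genes that met the N2 conditions (grey). Dashed lines mark 50%, which bounds the members by construction: they reach down to 1.63% on the meg-3 meg-4 axis (T25D3.3) and to 1.76% on the rde-11 axis (Y47H9C.9).

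The members just inside and just outside each limit of the rule were close in value. F58G1.7, bre-1 and oac-55 had the lowest N2 means taken, 21.3, 21.3 and 22.7 fpm, and Y48A6B.18, nspg-7.1 and dpsm-1 were left out at 19.9, 17.6 and 16.05 fpm. For the meg-3 meg-4 limit, klf-3, F45D3.1 and R07E5.4 were inside at 49.2%, 48.97% and 48.3% of N2, and K01A6.6, ZK1128.7 and toh-1 outside at 50.03%, 52.3% and 53.2%. For the rde-11 limit, Y39C12A.9, sol-2 and C06A1.3 were inside at 49.96%, 49.5% and 49.3% of N2, and sup-1, T22A3.12 and pcp-4 outside at 50.3%, 50.9% and 51.0%. The requirement of more small RNAs in treated than in untreated N2 RNA removed B0261.6, whose treated level was 0.95 of the untreated one.

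B0001.5 had the highest level, with 562 and 575 fpm in meg-3 meg-4 worms, 733 and 721 fpm in rde-11 and 1813 and 1823 fpm in N2. The groups did not overlap, and the mutants kept 31.3% and 39.96% of the N2 mean. Per kilobase of exon it also led the N2 libraries, at 980 fpm per kb, ahead of ndx-2 at 477 and ins-17 at 408 fpm per kb, whereas the long gene ZC247.1 was lowest at 7.42 fpm per kb. C06B8.7, next in fpm, had 86.7 and 73.1 fpm in meg-3 meg-4 worms, 171 and 92.0 fpm in rde-11 and 987 and 851 fpm in N2. Its rde-11 libraries differed from each other more than its N2 libraries did in proportion. W03D8.7 had 110 and 98.5 fpm in meg-3 meg-4 worms, 130 and 117 fpm in rde-11 and 368 and 321 fpm in N2. ego-2, a BRO1-domain gene known as an enhancer of Notch signalling in the germline, had 136 and 147 fpm in meg-3 meg-4 worms, 130 and 122 fpm in rde-11 and 326 and 375 fpm in N2. For this gene the mutants were at about the same level.

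**Figure D3:**
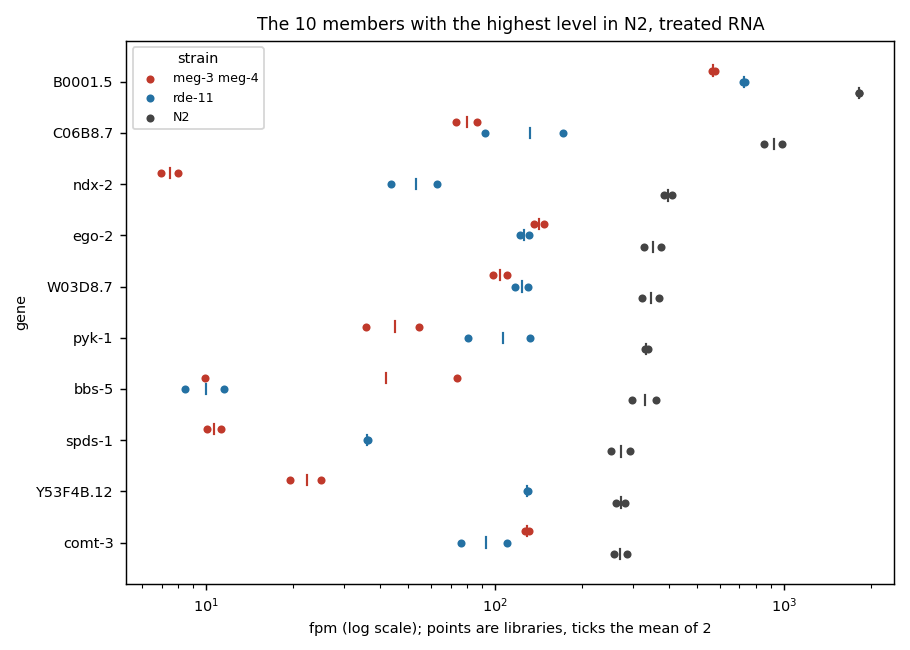
Level in treated RNA (fpm, log scale) of the 10 members with the highest N2 means, with a point for each library and a tick for the mean of 2. N2 lies to the right of both mutants for each gene; the meg-3 meg-4 points are far below those of rde-11 for ndx-2 and Y53F4B.12, and the 2 meg-3 meg-4 points of bbs-5 stand apart at 73.8 and 9.85 fpm.

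Enzymes and transporters of metabolism made up 12 of the 26 members that could be placed in a role group from textbook knowledge; these groups were formed after the members were seen and carry no test. Their median share of N2 was 28.4% in meg-3 meg-4 worms and 35.9% in rde-11. ndx-2, a Nudix hydrolase of the family that cleaves nucleoside diphosphates linked to another group, had 6.98 and 7.96 fpm in meg-3 meg-4 worms, 43.4 and 62.8 fpm in rde-11 and 409 and 384 fpm in N2. N2 was thus 53.1-fold above meg-3 meg-4 and 7.47-fold above rde-11, with no overlap among the strains. spds-1, the spermidine synthase of polyamine synthesis, had 11.2 and 10.04 fpm in meg-3 meg-4 worms, 35.97 and 36.2 fpm in rde-11 and 293 and 252 fpm in N2. pyk-1, a pyruvate kinase of glycolysis, had 35.7 and 54.6 fpm in meg-3 meg-4 worms, 80.2 and 132 fpm in rde-11 and 329 and 338 fpm in N2. comt-3, of the catechol-O-methyltransferase family, was the reverse in the order of the mutants, with 131 and 127 fpm in meg-3 meg-4 worms, 110 and 76.3 fpm in rde-11 and 285 and 257 fpm in N2. The other 8 were the fatty acid desaturase fat-2, the diacylglycerol acyltransferase dgat-2, the glucuronosyltransferase ugt-64, the GDP-mannose dehydratase bre-1, the inositol transporter hmit-1.2, the calcium pump mca-2, the ATPase inhibitor homologue mai-1 and the acyltransferase oac-55.

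Both cilia members, bbs-5 and arl-13, kept a smaller share in rde-11, compared with meg-3 meg-4. bbs-5 encodes a subunit of the BBSome, which carries membrane proteins in cilia, and had 73.8 and 9.85 fpm in meg-3 meg-4 worms, 8.45 and 11.48 fpm in rde-11 and 360 and 298 fpm in N2. Its 2 meg-3 meg-4 libraries were unlike each other, at 349 and 52 reads, so its mean share of 12.7% describes neither, while its share in rde-11 was 3.03%. arl-13 encodes a small GTPase of the ciliary membrane and had 24.7 and 20.6 fpm in meg-3 meg-4 worms, 18.1 and 12.9 fpm in rde-11 and 235.2 and 190 fpm in N2. Its exons overlap those of the member Y37E3.26 on the other strand, which had 3.59 and 3.41 fpm in meg-3 meg-4 worms, 1.97 and 2.21 fpm in rde-11 and 43 and 36.8 fpm in N2, the same order of strains. Reads of this pair may be shared, and they are not independent members. The list of cilia genes held 58 genes of the tables, of which 14 met the N2 conditions.

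Ligands, receptors and transporters of signalling, as grouped here, numbered 6, with a median share of N2 of 17.98% in meg-3 meg-4 worms and 38.7% in rde-11. gpr-158, given below among the other members, was not placed in this group. daf-7, the TGF-β ligand of the dauer pathway, had 14.8 and 12.1 fpm in meg-3 meg-4 worms, 32.0 and 34.4 fpm in rde-11 and 80.9 and 84.5 fpm in N2. ser-5, a serotonin receptor, had 4.86 and 5.49 fpm in meg-3 meg-4 worms, 30.9 and 34.4 fpm in rde-11 and 73.6 and 63.02 fpm in N2. mod-5, the serotonin transporter that clears the transmitter from synapses, had 17.1 and 13.8 fpm in meg-3 meg-4 worms, 23.8 and 22.1 fpm in rde-11 and 85.0 and 72.3 fpm in N2. For all 3 genes meg-3 meg-4 was lowest and N2 highest in every library. The other 3 were the insulin-like peptide ins-17, the chemoreceptor sra-35 and sol-2, an auxiliary protein of glutamate receptors.

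mod-5 was the only member on a list of 91 neuronal genes of the tables, 18 of which met the N2 conditions. Small RNAs summed over that whole list came to 1155 and 1124 fpm in meg-3 meg-4 worms, 3900 and 3567 fpm in rde-11 and 3334 and 3256 fpm in N2 (treated RNA). Of 50 other neuronal genes tested against N2, 15 were lower and 1 higher in meg-3 meg-4 worms, where 6.72% of all genes tested were lower and 1.54% higher. In rde-11, 2 of 50 were lower and 9 higher, where 4.48% and 6.34% of all genes were, and on values centred on the median gene 6 were lower and 7 higher, where 8.53% and 3.22% of all genes were. The cilia list summed to 1518 and 1361 fpm in meg-3 meg-4 worms, 3154 and 2881 fpm in rde-11 and 3141 and 3053 fpm in N2. Of its other genes, 6 of 30 were lower and 1 higher in meg-3 meg-4 worms, and 1 of 31 was lower and 5 higher in rde-11, or 2 lower and 2 higher once centred; the shares over all genes are those just given. The part of these shifts in the values of bbs-5, arl-13 and mod-5 was not tested, and small RNAs against an mRNA do not count the cells that express it. Other lists had lower sums in meg-3 meg-4. In treated RNA muscle genes summed to 435 and 476 fpm there, 737 and 737 fpm in rde-11 and 640 and 682 fpm in N2. Sperm and cuticle lists kept this order. In the double mutant intestine sums overlapped N2, and interference sums were higher. Peroxisome sums were below N2 in both mutants. By limma 4 of 26 muscle genes were lower and 2 higher in meg-3 meg-4. Of 28 sperm genes 1 was lower and 1 higher, and of 9 cuticle genes 0 were called.

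Transcription factors also numbered 6, with a median share of 14.2% in meg-3 meg-4 worms and 36.9% in rde-11. fezf-1, a zinc finger factor of the Fez family, had 0.846 and 0.758 fpm in meg-3 meg-4 worms, 5.11 and 3.62 fpm in rde-11 and 48.5 and 31.5 fpm in N2. Its meg-3 meg-4 values were 4 reads each, so the 49.9-fold higher N2 mean rests on few reads. ztf-31 had 10.8 and 11.4 fpm in meg-3 meg-4 worms, 11.2 and 7.85 fpm in rde-11 and 156 and 94.5 fpm in N2, and the mutants overlapped. ceh-43, a homeobox gene of the Distal-less type, had 4.44 and 1.70 fpm in meg-3 meg-4 worms, 27.5 and 16.5 fpm in rde-11 and 48.7 and 56.6 fpm in N2. The remaining factors were the basic helix-loop-helix gene hlh-11, the Krüppel-like klf-3 and the forkhead gene pes-1, of which klf-3 kept the largest share in meg-3 meg-4 worms, at 49.2%.

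The other 66 members comprised 12 with a gene name and 54 known by a sequence name. T25D3.3 kept the smallest share in meg-3 meg-4 worms, with 1.27 and 2.46 fpm in meg-3 meg-4 worms, 33.4 and 34.8 fpm in rde-11 and 129 and 101 fpm in N2. gpr-158, listed in the files as F39B2.8, had 2.54 and 4.17 fpm in meg-3 meg-4 worms, 55.6 and 47.9 fpm in rde-11 and 145 and 124 fpm in N2. The 2 genes thus kept 1.63% and 2.49% of N2 in meg-3 meg-4 worms, and 29.7% and 38.5% in rde-11. exc-9, a LIM-domain gene needed for the shape of the excretory canal, had 1.48 and 1.14 fpm in meg-3 meg-4 worms, 12.97 and 8.26 fpm in rde-11 and 49.9 and 44.2 fpm in N2. Y47H9C.9 was the member with the lowest share in rde-11, with 3.17 and 2.65 fpm in meg-3 meg-4 worms, 0.786 and 1.01 fpm in rde-11 and 43.2 and 59.0 fpm in N2. Its rde-11 values were 4 and 5 reads. Other members with small shares in rde-11 were Y44E3A.1 (8.59%), R05G6.5 (9.54%), fezf-1 (10.9%) and C25D7.15 (11.2%).

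The 37 members with at least 100 fpm in N2 had median shares of 15.3% in meg-3 meg-4 worms and 32.9% in rde-11, and the other 55 had 23.3% and 34.4%. The 35 members with an exon overlapped on the opposite strand had 23.9% and 34.3%, and the 57 without had 19.1% and 34.2%. Of 37 partners on the opposite strand that the tables hold, 19 met the N2 conditions. Of these 6 were below 50% of N2 in both mutants, 12 in neither and 1, Y41D4A.3, in meg-3 meg-4 alone. The 6 were the member pairs arl-13 with Y37E3.26, spe-47, a sperm gene, with Y23H5A.9, and Y48B6A.10 with Y48B6A.17.

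The mutants were set against each other in treated RNA, a contrast the rule did not set, although the libraries are the same and each member is held under 50% of N2 in both strains. The counts and p-values of this contrast, here and for the genes named below, are thus not independent of the choice of the members. By mean, 70 members were lower in meg-3 meg-4 and 22 higher, relative to rde-11, and 71.1% of all genes tested were lower. With the median gene at 0, 56 members were lower (43.7% of all genes), and by edgeR and DESeq2 57 were (49.2% and 48.98%). In limma on log2(fpm + 1), fitted to the 6 treated libraries and 16340 genes with Benjamini-Hochberg adjustment, 37 members passed an adjusted p of 0.05 as lower in meg-3 meg-4 worms, where 12.6% of all genes were lower, and 1 as higher, where 4.55% were (17.1% in either direction). The median difference was -0.55 over the members and -0.28 over all genes tested. Scaling bears on this split, since the median gene of at least 50 fpm lay at -0.35. Centred on that median, 25 members were lower and 8 higher, where 5.04% of all genes were lower and 7.03% higher, and all 25 were among the 37. In edgeR's quasi-likelihood test with TMM scaling it was 25 lower and 7 higher (5.99% and 7.46% of all genes), and in DESeq2 25 lower and 4 higher (4.68% and 5.32%). The counts of higher members are thus near the shares over all genes. These shares are over genes that averaged 1 fpm or more, whereas each member had at least 20 fpm in N2. The members thus had more reads than many of the genes they are set beside. Centred on the median microRNA, 56 members were lower and 0 higher, where 24.99% and 2.48% of all genes were. The number of calls moved with the library left out, as given below. The medians over members and over all genes were -0.48 and -0.29 without rde-11 replicate 1, and -0.59 and -0.27 without rde-11 replicate 2. They were -0.58 and -0.22 without meg-3 meg-4 replicate 1, and -0.49 and -0.28 without meg-3 meg-4 replicate 2.

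The members lowest in meg-3 meg-4 against rde-11 were T25D3.3, at a log2 difference of -3.65 (SE 0.26, limma adjusted p = 2.3e-05), and gpr-158, at -3.62 (SE 0.24, adjusted p = 1.6e-05). ndx-2 differed by -2.66 (SE 0.22, adjusted p = 5.3e-05), Y37H2A.10 by -2.61 (SE 0.29, adjusted p = 0.00033) and ceh-43 by -2.54 (SE 0.36, adjusted p = 0.0015), all in limma. These 5 kept their call in each alternative run. Y37H2A.10 had 1.06 and 0.947 fpm in meg-3 meg-4 worms, or 5 reads each, 15.1 and 8.26 fpm in rde-11 and 27.9 and 27.7 fpm in N2. Y53F4B.12 differed by -2.50 (SE 0.18), with 24.9 and 19.5 fpm in meg-3 meg-4 worms, 130 and 128 fpm in rde-11 and 282 and 262 fpm in N2. exc-9 (-2.30) was also called lower, as were spds-1 (-1.68), fezf-1 (-1.56), pyk-1 (-1.203), ser-5 (-2.45), daf-7 (-1.25) and ins-17 (-1.25) of the role groups. fezf-1 lost its call without rde-11 replicate 1 (adjusted p = 0.073) and pyk-1 without rde-11 replicate 2 (adjusted p = 0.15), in the same limma fit.

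Y47H9C.9 was the 1 member called higher in meg-3 meg-4 worms, at 1.04 (SE 0.25, limma adjusted p = 0.022), a difference between 15 and 14 reads in meg-3 meg-4 worms and 4 and 5 reads in rde-11. It lost its call when any 1 of 3 libraries was left out, with limma adjusted p of 0.051 without meg-3 meg-4 replicate 1, 0.15 without rde-11 replicate 1 and 0.098 without rde-11 replicate 2. The cilia genes were not called: bbs-5 differed by 1.39 (SE 0.70, limma adjusted p = 0.21) and arl-13 by 0.54 (SE 0.23, limma adjusted p = 0.15). With the median gene at 0 both passed, bbs-5 at 1.74 (limma adjusted p = 0.027) and arl-13 at 0.88 (limma adjusted p = 0.024). bbs-5 turned on 1 library: without meg-3 meg-4 replicate 2 it was at 2.78 (limma adjusted p = 6.5e-07). Without meg-3 meg-4 replicate 1 it lay at -0.0013 (limma adjusted p = 0.998). mod-5 differed by -0.55 (SE 0.21, limma adjusted p = 0.11). For 54 of the 92 members no difference between the mutants was called, which does not show that the mutants were alike there.

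**Figure D4:**
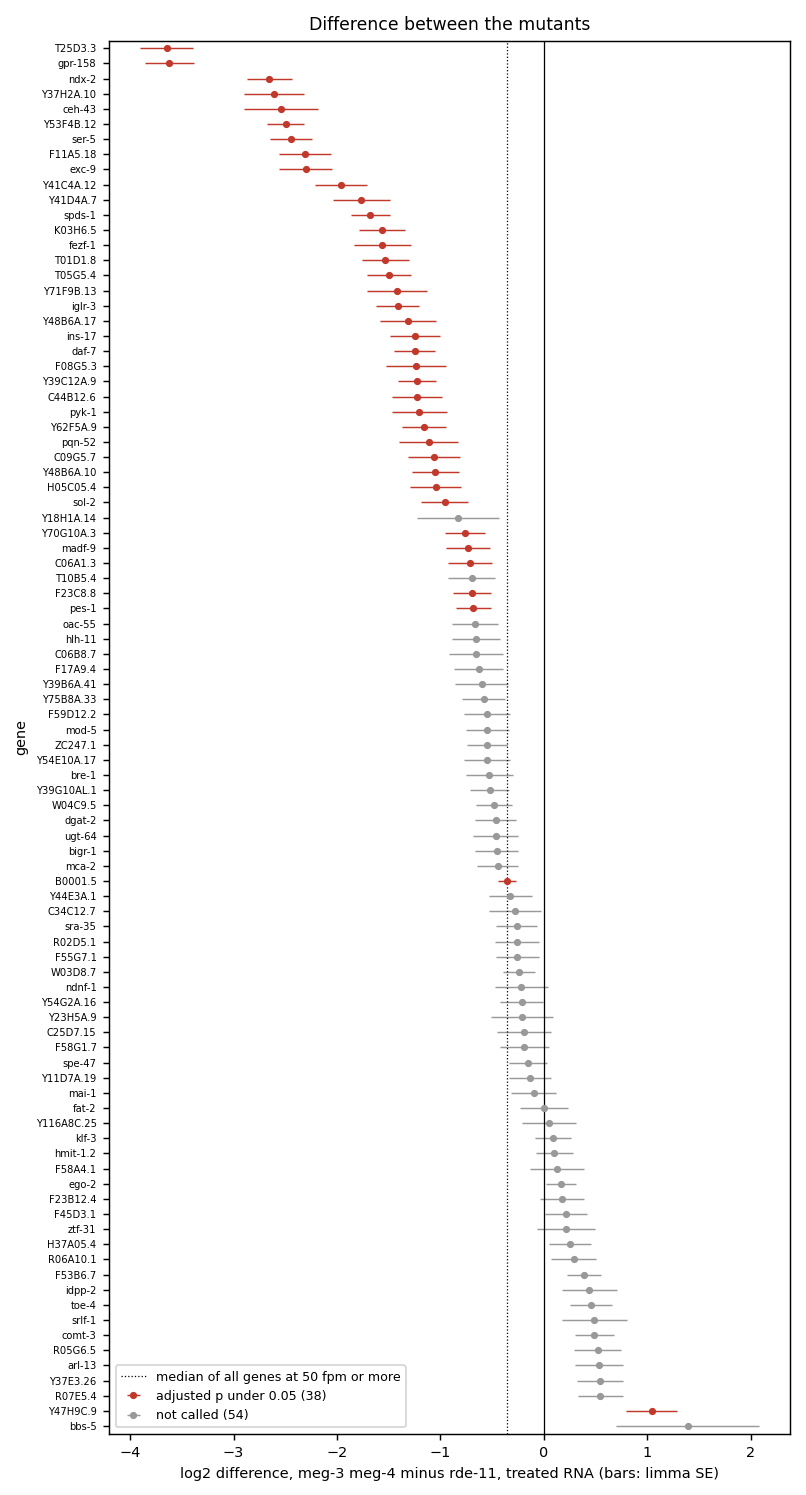
Difference of meg-3 meg-4 minus rde-11 in treated RNA, in log2(fpm + 1), for the 92 members in order, with bars of 1 limma SE and red for an adjusted p under 0.05. Of the 38 in red 37 lie left of 0 and 1, Y47H9C.9, right of it; the dotted line marks the median of all genes of at least 50 fpm, at -0.35, and bbs-5 at the foot has the widest bar.

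Untreated RNA, which the rule used only through N2, held few small RNAs of the members. They summed to 101 and 121 fpm in meg-3 meg-4 worms, 118 and 117 fpm in rde-11 and 140 and 178 fpm in N2. In 68 members the mean was under 1 fpm in each strain, and 7 members had 0 reads in every untreated library, each compatible with up to 3 reads or 0.597 to 0.772 fpm. Treated RNA exceeded untreated RNA, on the log2(fpm + 1) scale, by a median of 3.58 in meg-3 meg-4 worms, 4.05 in rde-11 and 5.65 in N2 over the members, and by 4.29, 4.48 and 4.51 over the 4531 genes in the same strains. The members' treated values chose them, so the excess in N2 is a description.

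Of the members, 17 reached a mean of 1 fpm and could be tested in untreated RNA of meg-3 meg-4 against N2, and 16 in that of rde-11 against N2. In limma 0 of 17 were called in meg-3 meg-4 worms, where 0.238% of all genes were called (0.119% lower), and 0 of 16 in rde-11, where 0.593% were (0.198% lower). edgeR and DESeq2 also called 0 in both. At an unadjusted p under 0.05, limma gave 3 members in each comparison, edgeR 3 in meg-3 meg-4 worms and 7 in rde-11, and DESeq2 0 and 1. The same held for 9.85% and 11.1% of all genes in limma, 5.12% and 9.19% in edgeR and 1.64% and 2.62% in DESeq2. The fitted difference was below 0 for 17 of 17 members in meg-3 meg-4 worms (71.4% of all genes) and for 16 of 16 in rde-11 (29.3% of all genes), with medians of -0.39 and -0.44, whereas over all genes tested the medians were -0.19 and 0.19. The count in meg-3 meg-4 depended on the scaling: it was 9 of 17 after centring on the median gene, 12 by edgeR and 13 by DESeq2. It was 14 of 20 tested without meg-3 meg-4 replicate 1 and 11 of 15 without N2 replicate 2. In rde-11 it stayed at 16 of 16 under those scalings, and was 10 of 16 without N2 replicate 2. Both comparisons share the N2 libraries, so the 2 counts are not independent. The filter of 1 fpm averaged over N2 and mutant libraries, so a member could be tested because N2 was high. With no filter, 70 of 84 members lay below 0 in meg-3 meg-4 worms (62.8% of all genes) and 66 of 81 in rde-11 (37.2%). The medians were then -0.23 and -0.16 over the members, and -0.12 and 0.13 over all genes. Between the mutants, 0 of 16 members were called in untreated RNA by limma, edgeR or DESeq2, where limma called 6.92% of all genes (6.44% lower and 0.488% higher in meg-3 meg-4). That balance turned round with the scaling, to 0.168% lower and 1.85% higher after centring on the median gene, 0.239% and 1.69% by edgeR and 0.133% and 1.26% by DESeq2. At an unadjusted p under 0.05 it was 0 members by limma, where 26.6% of all genes were, and 1 each by edgeR (10.7%) and DESeq2 (4.66%).

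The members with an unadjusted limma p under 0.05 in untreated RNA were B0001.5, C06B8.7 and Y23H5A.9 in meg-3 meg-4, and C06B8.7, C09G5.7 and ndx-2 in rde-11. Of these, 3 are also among the 10 highest members in treated N2 RNA. B0001.5 had 1.79 and 3.73 fpm in meg-3 meg-4 worms, 4.30 and 4.63 fpm in rde-11 and 6.57 and 6.85 fpm in N2, so that N2 was highest in every library. Its log2 difference was -1.09 (SE 0.35, limma adjusted p = 0.22) in meg-3 meg-4 worms and -0.50 (SE 0.33, limma adjusted p = 0.60) in rde-11. C06B8.7 had 0.597 and 1.24 fpm in meg-3 meg-4 worms, 0.430 and 1.03 fpm in rde-11 and 3.94 and 2.28 fpm in N2, without overlap between either mutant and N2. It differed by -1.09 (SE 0.40, limma adjusted p = 0.31) in meg-3 meg-4 worms and by -1.24 (SE 0.40, limma adjusted p = 0.15) in rde-11. ndx-2 had 2.19 and 3.73 fpm in meg-3 meg-4 worms, 3.01 and 2.06 fpm in rde-11 and 5.70 and 4.11 fpm in N2, again without overlap with N2. ndx-2 differed by -0.59 (SE 0.36, limma adjusted p = 0.58) in meg-3 meg-4 worms and by -0.74 (SE 0.36, limma adjusted p = 0.43) in rde-11. None of these differences passed at the 9 to 30 reads that B0001.5, the most abundant of the 3 in N2, had in a library.

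**Figure D5:**
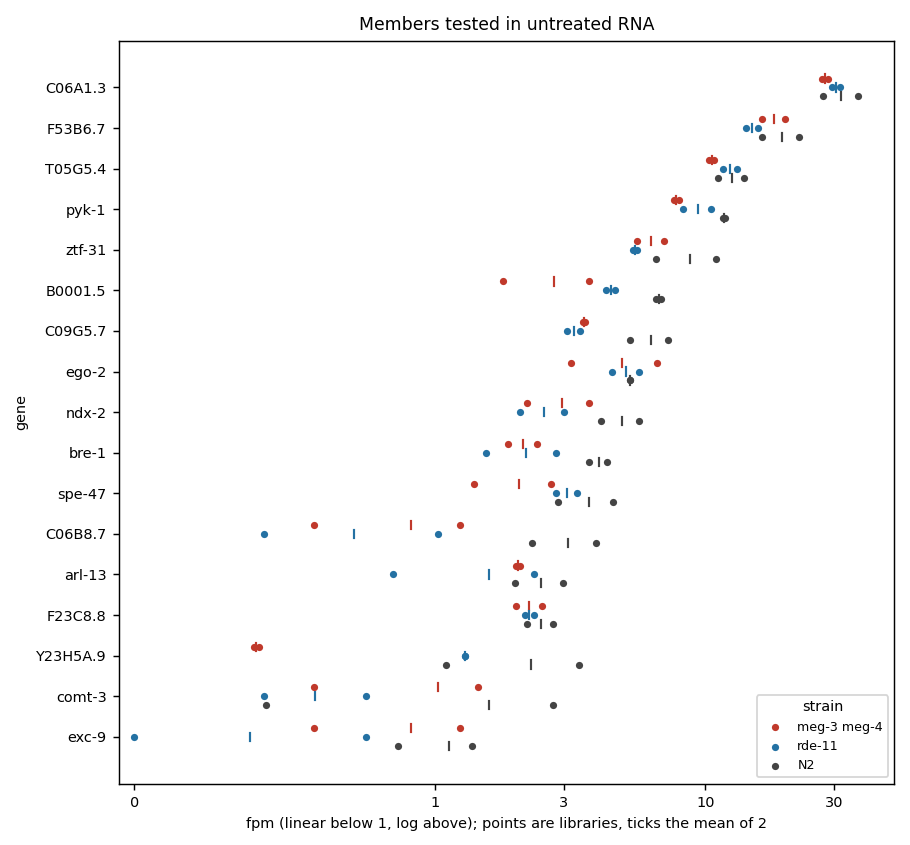
Level in untreated RNA (fpm, linear below 1 and log above) of the 17 members tested there, with a point for each library and a tick for the mean of 2. C06A1.3, F53B6.7 and T05G5.4 are highest in every strain. The filter of 1 fpm counted the N2 libraries, so a member can be shown because N2 was high, and nothing is read from the order of the strains. No difference of a member from N2 was called by limma in untreated RNA.

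C06A1.3 and T05G5.4 stood apart, with more small RNAs in untreated than in treated RNA of both mutants. C06A1.3 had 12.05 and 15.5 fpm in treated against 27.1 and 28.4 fpm in untreated RNA of meg-3 meg-4, and 22.8 and 23.4 fpm in treated against 31.6 and 29.3 fpm in untreated RNA of rde-11. In N2 it had 48.5 and 45.1 fpm in treated and 27.2 and 36.5 fpm in untreated RNA, so N2 lay above both mutants in every treated library, whereas the untreated N2 libraries spanned those of rde-11. T05G5.4 had 2.75 and 2.84 fpm in treated against 10.4 and 10.8 fpm in untreated RNA of meg-3 meg-4, 10.2 and 9.26 against 13.1 and 11.58 fpm in rde-11, and 71.5 and 61.6 against 11.2 and 13.9 fpm in N2. In untreated RNA the log2 difference from N2 was -0.18 (SE 0.22) for C06A1.3 and -0.22 (SE 0.27) for T05G5.4 in meg-3 meg-4 worms, and -0.05 (SE 0.24) and -0.02 (SE 0.28) in rde-11, none of them called by limma.

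No member belonged to the lists of exogenous RNA interference and amplification genes (34 in the tables, 28 of which met the N2 conditions), Argonautes (22, of which 11 did), germ granule, muscle, intestine, cuticle, maternal germline, sperm or peroxisome genes, nor to the 9 reported ERGO-1 or NRDE-3 targets, one of which, E01G4.5, the rule left out by name. The rule also left out pos-1 by name, a gene of the maternal germline list. Both genes met its limits on values. The lists are not complete: spe-47, a member called a sperm gene above, is not among the 33 genes of the sperm list. ndx-2 was the member among 9 Nudix genes. In meg-3 meg-4, 2 of 32 tested genes of the interference list were higher in treated RNA and 0 lower, where 1.54% of all genes were higher and 6.72% lower: rde-11 itself, by 2.78 (SE 0.08, limma adjusted p = 1.6e-05), and the double-stranded RNA channel sid-1, by 0.52 (SE 0.12, limma adjusted p = 0.036). Of these, rde-11 alone passed after centring on the median gene. In rde-11, 8 of 33 were higher and 0 lower, where 6.34% of all genes were higher and 4.48% lower, or 5 higher after centring, where 3.22% were: dcr-1 (Dicer), drh-1, ego-1, rrf-1 and rrf-3 kept the call, and drh-3, eri-1 and rde-1 did not. ego-1, rrf-1 and rrf-3 encode RNA-dependent RNA polymerases, and their differences were 0.75, 0.70 and 0.72 (SE 0.16, 0.13 and 0.17). Of the Argonautes, 1 of 22 was higher in meg-3 meg-4 worms (wago-2, by 0.55, a call that centring ended). In rde-11 4 of 21 were higher, csr-1, wago-1, prg-2 and rde-1, and sago-1 was lower by -1.96 (SE 0.30, limma adjusted p = 0.0012). The means of sago-1 were 0.793 fpm in rde-11 and 5.99 fpm in N2, so its rde-11 value rests on few reads. On centred values 3 Argonautes were higher and 2 lower, where 3.22% and 8.53% of all genes were.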

How the data were processed

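Small RNAs of 12 libraries were counted per gene. The authors deposited 4 tables, 1 per mutant and RNA treatment, whose values are, per the file headers, fpm (the CPM unit, not corrected for gene length); the authors' log2 fold changes and p-values beside them were not used. Per the submitters' processing notes, the tools included HTSeq, Bowtie2, cutadapt and DESeq2, without versions, with the build ce10; strand setting, treatment of multiple alignments and read lengths were not given in the sources used. Overlapping genes may share reads. The 8 deposited columns of averages were not used. Whole reads were recovered from the fpm (100% of values within 0.01 of a whole read). Depths and floors cover counting error only.

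Members and lists were chosen with earlier results of these data known. Comparisons used limma 3.58.1 (R 4.3.3) in its trend form, on log2(fpm + 1) of genes that averaged 1 fpm or more, with Benjamini-Hochberg adjustment over all genes and a call at 0.05. Log2 differences are on this scale, which understates the change of low genes. Mutants against N2 were fitted on 4 libraries and mutants against each other on 6; nothing says that replicates were separate cultures, so p-values measure only the spread between these libraries. For a single gene, 2 against 2 libraries allow no exact two-sided p below 0.333. Recovered reads were also tested with edgeR 4.0.16 (quasi-likelihood, TMM) and DESeq2 1.42.0. Other alternatives were a pseudocount of 0.5 fpm, no filter, centring on the median gene of at least 50 fpm or the median microRNA, a replicate block, all strains in 1 fit, each library left out, and other limits in the rule. Annotation came from WBcel235, another build than that of the files, and matched 41759 identifiers, 92 of the members among them; no coordinates are given.

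Members named were the 10 highest in N2, the 10 with the lowest (fpm + 1) ratio in each mutant, the 5 most different between mutants in each direction among those called, those in a fixed list, and the 3 nearest each limit; machinery genes were named when called. Genes named by role or in untreated RNA beyond these were chosen after their values were seen.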

Additional observations from a re-analysis of the deposited data

How the results depend on the processing

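Leaving out a library took the number of members to between 83 and 108 (77 to 92 of the 92 shared), a limit of 10 or 50 fpm in N2 to 121 or 63, a limit of 3-fold below N2 in place of 2-fold to 37, scaling to microRNA reads to 80 (73 shared) and TMM scaling to 100 (87 shared). No named member called in the fits as reported changed sign. The balance of calls over all genes did turn with the scaling: treated rde-11 against N2 had 1045 higher and 739 lower, but 531 and 1406 after gene centring, 665 and 1088 by edgeR and 368 and 554 by DESeq2. Treated meg-3 meg-4 against rde-11 had 744 higher and 2051 lower, but 1148 and 823 after gene centring, 1219 and 978 by edgeR and 869 and 765 by DESeq2. Counts over all genes moved most. For untreated meg-3 meg-4 against N2 (26 called) they were 0 with no filter, 178 with microRNA centring, where 1 member, B0001.5, was called lower, and 8 to 348 with a library left out. For untreated rde-11 against N2 (69) they were 8 with no filter, 24 by DESeq2, 32 with all strains in 1 fit and 0 to 28 with a library left out. For untreated meg-3 meg-4 against rde-11 (781) they were 17 with no filter, 228 and 2229 with gene and microRNA centring, 218 by edgeR, 157 by DESeq2 and 1.0e+02 (rounded) to 419 with a library left out. For treated RNA against N2 they were 736 to 2756 in meg-3 meg-4 worms (1344) with a library left out, and in rde-11 (1784) 456 with no filter, 922 by DESeq2, 528 in 1 fit and 819 to 2508 with a library left out. Between the mutants in treated RNA (2795) they were 4488 with microRNA centring, 1634 by DESeq2 and 994 to 5286 with a library left out; members called higher (1) were 0 with no filter, 8 with gene centring, 0 with microRNA centring, 7 by edgeR, 4 by DESeq2 and 0 to 4 with a library left out, and members called lower (37) were 56 with microRNA centring and 21 to 39 with a library left out. The cause of these shifts was not tested.

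Replicate numbers are shared by the strains, but nothing says that a number marks a culture or a day. Differences of replicate 1 minus 2 correlated across genes between strains at r = 0.74, 0.66 and 0.75 in treated RNA (2834 genes) and at 0.33, 0.17 and 0.59 in untreated RNA (835 genes). With 2 pairs, the samples share only a number. With a replicate block, calls over all genes were 72 and 118 in untreated meg-3 meg-4 and rde-11 against N2, 2589 and 4213 in treated RNA, and 2050 and 5158 between the mutants in untreated and treated RNA, with 5 members higher and 50 lower in treated RNA. Under the block bbs-5, arl-13 and mod-5 passed between the mutants (limma adjusted p = 0.0083, 0.024 and 0.030).

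Depth limits the untreated comparisons, where 1 read was worth about as much as many members' means.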

Other observations

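Besides the members, 8 genes met the limits on values and were left out by name. pos-1, the target of the feeding, had 2776 and 2120 fpm in meg-3 meg-4 worms, 1312 and 1116 fpm in rde-11 and 8765 and 7819 fpm in N2 in treated RNA. In untreated RNA, where primary small RNAs enter, it had 4869 and 3969 fpm in meg-3 meg-4 worms, 3519 and 3264 fpm in rde-11 and 3959 and 3679 fpm in N2, so the strains were closer together there. E01G4.5, a reported target of the ERGO-1 pathway of endogenous small RNAs, had 152 and 121 fpm in meg-3 meg-4 worms, 108 and 97.05 fpm in rde-11 and 582 and 456 fpm in N2 in treated RNA. Its untreated values were 5.58 and 6.003 fpm in meg-3 meg-4 worms, 16.98 and 21.1 fpm in rde-11 and 13.8 and 18.3 fpm in N2, lowest in meg-3 meg-4. The histone gene his-61 kept 16.8% of N2 in meg-3 meg-4 worms and 4.97% in rde-11, and the nuclear receptor gene nhr-64 kept 6.81% and 34.1% in the same strains. The F-box genes fbxa-216, fbxc-23 and fbxb-11 kept 10.1%, 41.05% and 43.8% in meg-3 meg-4 worms and 8.21%, 39.6% and 48.3% in rde-11. The piRNA locus 21ur-15630 kept 13.6% in meg-3 meg-4 worms and 26.2% in rde-11. Treated values chose the genes and are given with no test.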
